A study of Elaeis guineensis with 6 samples.

Results

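A module of 187 genes stood far higher in the control inflorescence at leaf axil +5 than in any other library of this oil palm (Elaeis guineensis Jacq.) dataset. The genes were chosen by their FPKM (a fragment count scaled for gene length and library size) in all 6 libraries. A gene entered when its FPKM in control +5 was 5 or more and at least 4 times the highest of the other 5 values, and when its identifier stood on 1 record only. This gave 187 of 31653 such identifiers (0.591%), in a table of 32099 records. Since the rule used all 6 values, the gap between control +5 and the other libraries is a description here and was not tested. All 187 genes carry LOC numbers, and neither the expression table nor the gene table of the newer EG11 assembly gives them a product name, so no role is stated for them.

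The libraries came from primordial inflorescences of 2 trees. One, the stress tree, had its crown of leaves pruned away apart from the spear at its centre. The other, the control tree, was left as it was. Inflorescences of both were sampled at felling, 45 days later. They came from leaf axils -27, -20 and +5 of each tree, giving 1 library per treatment and leaf axil (stress -27, stress -20, stress +5, control -27, control -20 and control +5). The treatment and the tree therefore cannot be told apart, and the control +5 library, on which the module rests, has no replicate.

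Oil palm bears male and female inflorescences on the same tree, and each leaf axil holds a single inflorescence. Negative numbers mark leaves that are still unopened near the apex, so leaf axils -27 and -20 hold young inflorescences and leaf axil +5 holds an older one that has not yet emerged. Complete defoliation is used by breeders to obtain male inflorescences. Some developmental genes of the table that have a name give a frame for the module. SQUA1 is a SQUAMOSA-type MADS-box gene, a class that in other plants promotes floral meristem identity. KNOX1 belongs to the knotted-type homeobox genes, which keep meristem cells undifferentiated. GLO2 is a GLOBOSA-type gene, a class that in snapdragon specifies petals and stamens.

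None of the 8 floral or meristem genes looked up by symbol was a member. Other named genes of these kinds were not looked up. SQUA1 had an FPKM of 4.10, 8.43 and 149.9 in the stress libraries at leaf axils -27, -20 and +5, against 5.59, 6.78 and 124.5 in the control libraries. Its level was thus high at +5 in both trees, unlike that of the module. KNOX1 stood at 961.5, 913.7 and 928.0 in the stress tree at these leaf axils, against 847.4, 480.2 and 380.5 in the control. GLO2 stood at 2.15, 0.844 and 3.51 under stress, against 3.61, 4.86 and 7.83 in the control, with its highest value in control +5 too. AGL6-1, a MADS-box gene, was listed at 0 in all libraries except control +5, where its FPKM of 2.21 lay under the minimum of the rule. Of the others, AG2 and MADS2 were listed at 0 throughout, AGL2-3 reached 0.153 in control +5 and DEF1 reached 0.164 in control -27. In whole inflorescences, fewer cells of a type and less RNA per cell cannot be told apart.

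The summed FPKM of a library lay between 238672 (stress +5) and 268805 (control +5). Sequencing depth relative to control -27, read from the steps between low FPKM values, was 1.19 for stress -27, 1.03 for stress -20, 1.12 for stress +5, 1.01 for control -20 and 0.949 for control +5, so the library that defines the module was the shallowest. Over genes above 0 in all 6 libraries, the median FPKM was 5.25 in control +5 and between 4.42 and 4.80 in the other 5. With these medians brought to the same value, 137 of the 187 genes still met the rule.

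The rule chose far more genes for control +5 than it would for any other library. Applied to stress +5 in the same way, it gave 33 genes, and it gave 1 gene for stress -27, 0 for stress -20, 1 for control -27 and 4 for control -20. These counts are without further scaling, and the medians given above were 5.25 in control +5 and 4.67 in stress +5. Only the control +5 count was repeated after scaling, so the size of the contrast between the +5 libraries is uncertain. The early libraries are no like comparison, since each has a close counterpart in its own tree. Between leaf axils -20 and -27, 0.933% of 18759 genes were at least 2-fold apart in the control tree and 0.928% in the stress tree. The 187 genes had a median FPKM of 0.624 in stress -27, 0.532 in stress -20 and 1.46 in stress +5, against 1.17 in control -27, 1.30 in control -20 and 14.2 in control +5. Together they held 0.239%, 0.229% and 0.336% of the summed FPKM in the stress libraries at leaf axils -27, -20 and +5, against 0.323%, 0.353% and 2.51% in the control libraries.

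**Figure D1:**
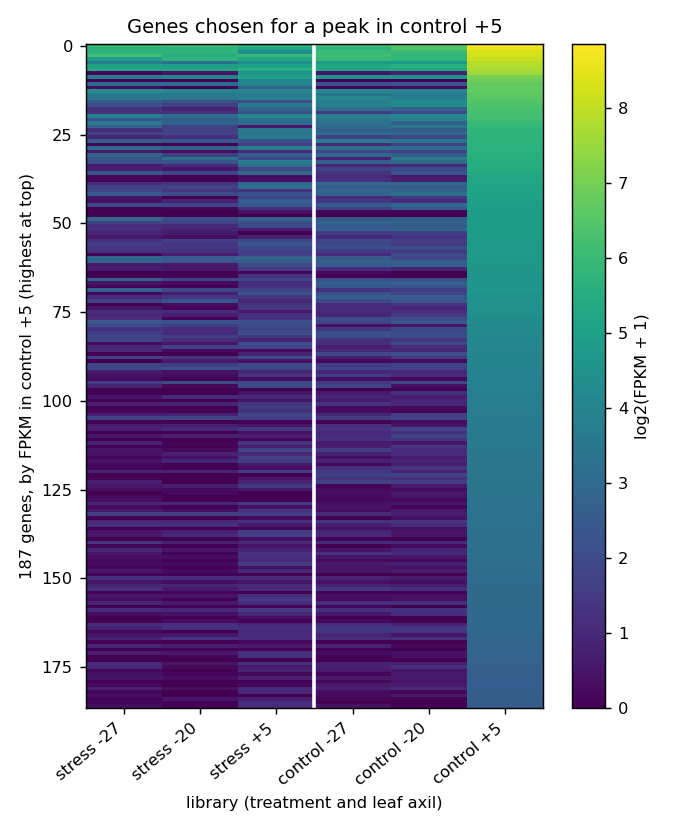
Level of each of the 187 genes, as log2(FPKM + 1), in the 3 stress libraries (left) and the 3 control libraries (right), with 1 row per gene, ordered by FPKM in control +5. The control +5 column is bright in every row because it chose the genes, and the stress +5 column (median 1.46 FPKM) is somewhat brighter than those of stress -27 and stress -20 (medians 0.624 and 0.532).

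Most of the module consisted of genes that were weak outside control +5, and a small part of it was well expressed everywhere. In control +5, 122 genes reached an FPKM of 10 or more, and the levels ran from 5.08 to 460.5. Outside control +5, 37 genes stayed under an FPKM of 1 in all 5 other libraries, while 51 had an FPKM of at least 1 and 15 an FPKM of at least 5 in all 5. The highest of the other values lay in an early control library (-27 or -20) for 82 genes, in stress +5 for 72 genes and in an early stress library for 29 genes. The remaining 4 genes were listed at 0 in all 5 other libraries. The ratio of control +5 to the highest other value had a median of 5.94 over the 187 genes, with 49 genes at 10 or more and 26 at 20 or more when the 4 genes are counted in.

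**Figure D2:**
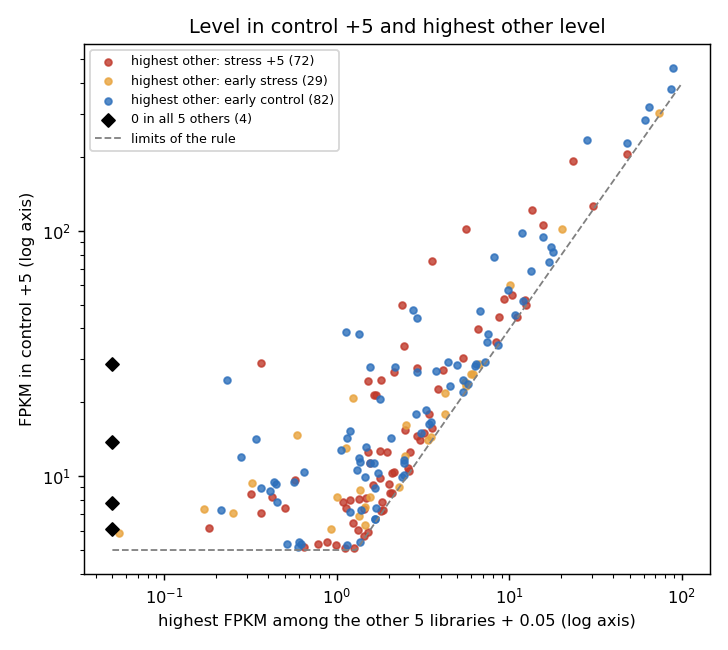
FPKM in control +5 (vertical, log axis) against the highest FPKM among the other 5 libraries plus 0.05 (horizontal, log axis), with 1 point per gene and the colour giving the library that held the highest other value. The dashed line marks the limits of the rule (FPKM of 5 and a ratio of 4), and many points lie close to it, with 122 of the 187 genes at a ratio of 5 or more when the 4 genes at 0 elsewhere are counted in.

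The most abundant members were expressed at every leaf axil of both trees. LOC105055392 had an FPKM of 59.2, 66.1 and 48.2 in the stress libraries at leaf axils -27, -20 and +5, against 67.5, 88.8 and 460.5 in the control libraries. LOC105057231 had 50.3, 53.2 and 34.6 under stress, against 51.9, 86.3 and 378.6 in the control. In both genes the 5 other libraries lay between 34.6 and 88.8 and control +5 stood alone above them. LOC105039376 had 52.2, 53.1 and 20.3 under stress, against 61.1, 64.4 and 320.6 in the control, so that its lowest and highest values were both at +5. LOC105055602 reached 302.8 in control +5, LOC105045973 282.8, LOC105046252 228.1 and LOC105044598 206.2, and no other library of these 4 genes exceeded 73.2. LOC105042628 had 12.2, 8.39 and 20.1 under stress, against 27.7, 28.0 and 235.1 in the control. Its early values lay further apart between the trees, in relative terms, than those of these 4 genes. LOC105045973, LOC105046252 and LOC105044598 also had both early stress values below both early control values, by smaller ratios. LOC105058997 had 10.7, 14.9 and 30.6 under stress, against 21.1, 21.0 and 126.8 in the control.

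Other abundant members were nearly silent in young inflorescences and had a partial level in stress +5. LOC105050253 had an FPKM of 0.0844, 0.390 and 23.3 in the stress libraries, against 0.405, 0.793 and 192.1 in the control libraries. LOC105046677 was listed at 0 in all 4 early libraries and stood at 13.4 in stress +5 and 121.0 in control +5. LOC105052290 had 0.196, 0 and 5.56 under stress, against 0.109, 0.232 and 101.8 in the control. In these 3 genes both +5 libraries lay above all 4 early ones, and stress +5 lay far below control +5. LOC105056793 had 7.56, 7.61 and 15.6 under stress, against 3.51, 3.81 and 105.6 in the control. It was not silent in young inflorescences, and its early values were higher in the stress tree.

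Among the genes with the largest ratios, most levels outside control +5 were under 1. The genes were ranked here by the ratio after 1 FPKM was added to both values, since the plain ratio puts forward genes such as LOC105054953, with an FPKM of 5.85 in control +5 and a highest other value of 0.00488. LOC105053031 was listed at 0 in the 3 stress libraries and in control -27 and -20, and had an FPKM of 28.7 in control +5. The same held for LOC105035107 at 13.7, LOC105051800 at 7.74 and LOC105036847 at 6.07 in control +5. No ratio is given for these 4 genes, since a listed 0 may also be a failed estimate and the table holds no read counts. LOC105058608 had 0, 0 and 0.314 under stress, against 0.112, 0.0580 and 29.0 in the control. LOC105045853 had 0, 0 and 0.160 under stress, against 0.180, 0 and 24.6 in the control. LOC105046069 had 0.141, 0.00156 and 0.265 under stress, against 1.08, 0.481 and 38.8 in the control, and LOC105048647 had 0.120, 0 and 0.309 under stress, against 1.29, 0.560 and 38.1 in the control. This pair of genes had nearly the same profile in all 6 libraries. LOC105039860 had 1.53, 1.26 and 3.49 under stress, against 1.78, 2.86 and 75.0 in the control. LOC105043741, LOC105049536, LOC105056283 and LOC105034068 lay between 0 and 2.86 outside control +5 and between 14.2 and 49.9 in it.

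The limits of the rule cut through a continuum of genes. LOC105038366, LOC105061024 and LOC105036816 lay just inside the ratio limit, at 4.01, 4.03 and 4.03. LOC105033565, LOC105039566 and LOC105043171 lay just outside it, at 3.99, 3.98 and 3.97. At the FPKM limit, LOC105034931, LOC114914426 and LOC105039259 lay just inside with 5.08, 5.08 and 5.14 in control +5, and LOC109506262, LOC105040145 and LOC105040704 just outside with 4.97, 4.95 and 4.93. A ratio limit of 3 would give 314 genes and a limit of 6 would give 93.

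The first comparison asked whether the same genes already differed between the trees at leaf axils -27 and -20, where the rule had used the values as an upper limit. Of the 181 members above 0 in an early library, both stress libraries lay below both control libraries in 94 (51.9%) and above them in 16 (8.84%), beside 32.9% and 24.0% of all 25173 genes above 0 in an early library. The 4 early libraries were tested with limma on log2(FPKM + 1), with the early libraries of a tree taken as its replicates, so that p-values measure the spread between leaf axils of a tree. Without a filter on low values, limma called 5 of the 181 members lower and 0 higher under stress at a Benjamini-Hochberg adjusted p under 0.01 and at least a 2-fold change, beside 0.449% lower and 0.159% higher of all 25173 genes. An unadjusted p under 0.05 from limma was found for 69 members that were lower and 5 that were higher, beside 7107 of the 25173 genes in either direction. Of the 104 members that reached an FPKM of 1 in 2 or more of the 4 libraries, 22 (21.2%) were called lower under stress, and 2.62% of all 18759 tested genes were, but 28 of the 104 passed this filter through the control libraries alone and made up 11 of the 22 calls, so the count is no measure of how often members were lower. No member was called higher, and 1.09% of all tested genes were. With the filter, 4 members were higher and 54 lower at an unadjusted p under 0.05 from limma, beside 6418 of the 18759 genes in either direction. The median log2 fold change was -0.49 over the 104 tested members, which the filter had weighted in the same way, and -0.05 over all tested genes. Without a filter it was -0.33 over the 181 members and -0.05 over all 25173 genes.

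Only 2 members passed the filter through the stress libraries alone. Among the 55 members with an FPKM of at least 1 in all 4 early libraries, 9 (16.4%) were called lower and 0 higher, and over all 16526 genes of that kind 2.02% were called lower and 0.853% higher. The median log2 fold change was -0.36 over these 55 members and -0.04 over all genes of that kind. Leaving out a control library also took out of the test the members that had passed the filter through the control libraries alone. The calls left then are no measure of how far they depended on either control library. Over the members still tested, the median log2 fold change was -0.29 without control -27 and -0.24 without control -20. It was -0.58 without stress -27 and -0.53 without stress -20. After quantile normalization or centring on medians, 17 members were called lower and 1, LOC105056792, higher. LOC105056792 was among the 2 members that passed the filter through the stress libraries alone.

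The genes with the largest log2 fold changes among the 22 were weak but present in the young control inflorescences. Of the 6 largest, all but LOC105060500 stayed under an FPKM of 1 in both early stress libraries and entered the filtered test through the control libraries alone, so their adjusted p without a filter is given too. LOC105045073 had an FPKM of 0.425 and 0.164 in stress -27 and -20, against 5.45 and 5.74 in control -27 and -20 (limma log2 fold change -2.36 ± 0.19 SE, adjusted p = 0.00093, and 0.00867 without a filter). Its stress +5 level was 1.20 and its control +5 level 23.7. LOC105051963 was listed at 0 in both early stress libraries, against 4.46 and 3.76 in the control (adjusted p = 0.000909 from limma, and 0.00737 without a filter), and stood at 1.34 in stress +5 and 23.4 in control +5. LOC105057099 had 0.552 and 0.504 in the early stress libraries, against 4.86 and 5.34 in the control (limma log2 fold change -2.00 ± 0.18 SE, adjusted p = 0.0012, and 0.00957 without a filter). The 2 libraries of each tree lay close together in these genes and the trees did not overlap, which the test that picked them favours.

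LOC105060500 had an FPKM of 3.42 and 2.20 in the early stress libraries, against 13.4 and 17.9 in the control (limma log2 fold change -2.14 ± 0.21 SE, adjusted p = 0.00167, and 0.0133 without a filter). LOC105058234 had 0 and 0.124, against 2.29 and 4.34 (limma log2 fold change -1.98, adjusted p = 0.00484, and 0.0217 without a filter). LOC105037813 was listed at 0 in both early stress libraries, against 2.69 and 3.02 in the control (adjusted p = 0.0017 from limma, and 0.00814 without a filter). The other 16 genes had log2 fold changes between -1.87 (LOC105043961) and -1.08 (LOC105041744). LOC105042628, one of the most abundant members, was among them (limma log2 fold change -1.37 ± 0.17 SE, adjusted p = 0.00384).

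**Figure D3:**
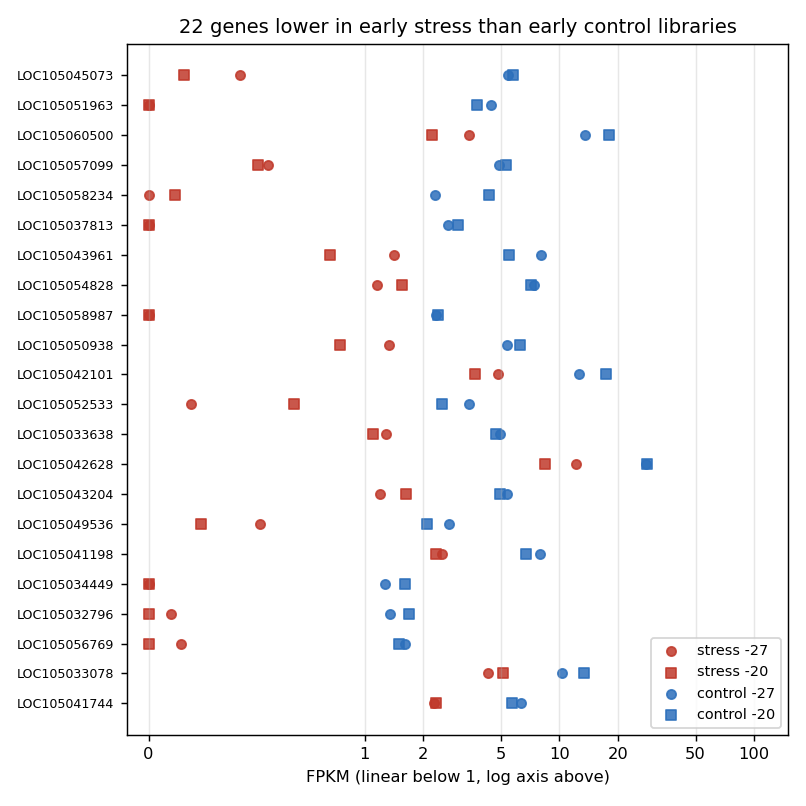
FPKM of the 22 genes called lower in the early stress libraries (red) than in the early control libraries (blue), with circles for leaf axil -27 and squares for -20 on an axis that is linear under 1 and logarithmic above. These genes were picked by that test, both stress points lie left of both control points in each, and 4 genes have both stress points at 0.

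A listed 0 in both early stress libraries together with an FPKM of at least 1 in both early control libraries was found in 5 of the 181 members, beside 0.143% of the 25173 genes, and the opposite in 0 members, beside 0.0755%. Besides LOC105051963 and LOC105037813 these were LOC105036887, LOC105034449 and LOC105058987, with FPKM values of 1.03 and 1.32, 1.26 and 1.60, and 2.33 and 2.39 in control -27 and -20. In stress +5 these genes stood at 0.339, 0.0772 and 0, and in control +5 at 11.4, 11.3 and 10.1. LOC105058987 was thus listed at 0 in all 3 stress libraries and was present in all 3 control libraries. A difference between the genomes of the 2 trees and an effect of the treatment cannot be told apart for such a gene.

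The second comparison asked whether the genes changed at +5 in the stress tree, without the control +5 library. The rule had used the stress values as upper limits too, so they are not independent of the choice of the members. Genes whose stress +5 level came near that of control +5 could not enter. The stress tree has a single library at +5, so the calls describe that library and have no replicate at +5. The test was limma over the 5 libraries other than control +5, with stress +5 set against the mean of stress -27 and -20. The spread is that between the early libraries, and stress +5 is assumed to vary like them. Of the 116 members that reached an FPKM of 1 in 2 or more of these libraries, 8 (6.90%) were called higher at +5, beside 0.873% of all 19128 tested genes, and 1 (0.862%) was called lower, beside 1.12%. At an adjusted p under 0.05 from limma, 23 members were higher and 2 lower (19.8% and 1.72%), beside 4.48% and 5.33% of all tested genes. The median log2 fold change was 0.43 over the tested members and 0.00 over all tested genes. The filter left 71 members untested. Among them, LOC105050253 and LOC105046677 had differences of 4.30 and 3.85 on the same scale, larger than that of any tested member.

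These calls were few and depended on the settings. Without the filter on low values, limma called 0% of 25655 genes in either direction, members included. At an unadjusted p under 0.05 from limma, 75 members were higher and 5 lower, beside 6493 of the 25655 genes in either direction. Leaving out stress -27 or stress -20 changed the number of members called, but left a single library on each side of the comparison. The median log2 fold change over the tested members was then 0.52 and 0.36.

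LOC105059122 had an FPKM of 0.921, 1.36 and 12.3 in the stress libraries at leaf axils -27, -20 and +5, against 2.33, 2.88 and 52.2 in the control libraries. Its log2 fold change in the stress tree was the largest among the called members (limma log2 fold change 2.65 ± 0.24 SE, adjusted p = 0.00198). LOC105039245 had 0.524, 1.15 and 8.66 under stress, against 0.882, 1.10 and 44.6 in the control (limma log2 fold change 2.42 ± 0.28 SE, adjusted p = 0.00452). LOC105050356 had 1.23, 2.35 and 10.2 under stress, against 5.63, 5.12 and 54.8 in the control (limma log2 fold change 2.04, adjusted p = 0.00698). In the stress tree the +5 library stood above both early ones in all 3 genes and far below control +5, as the rule requires.

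LOC105041168 had 0.347, 0.796 and 5.32 under stress, against 1.85, 1.20 and 30.3 in the control (limma log2 fold change 2.02, adjusted p = 0.0092). LOC105060500 had 11.9 in stress +5 (limma log2 fold change 1.78, adjusted p = 0.00862), which is below its level in either early control library. LOC105054828 had 1.15, 1.55 and 6.32 under stress, against 7.43, 7.17 and 37.9 in the control (limma log2 fold change 1.64, adjusted p = 0.00595). LOC105041198 had 2.50, 2.32 and 9.28 under stress, against 7.98, 6.72 and 52.8 in the control (limma log2 fold change 1.59, adjusted p = 0.00531). The early stress libraries of LOC105060500, LOC105054828 and LOC105041198 also entered the first comparison, where the log2 fold changes of these genes were -2.14, -1.82 and -1.29, so the 2 sets of values are not independent. The other gene called higher was LOC105039067, with 2.24, 2.33 and 8.36 under stress and 4.86, 5.23 and 35.2 in the control (limma log2 fold change 1.51, adjusted p = 0.00595).

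LOC105039376, one of the most abundant members, was the gene called lower at +5 in the stress tree (limma log2 fold change -1.34 ± 0.13 SE, adjusted p = 0.0026). Its FPKM of 20.3 in stress +5 stood against 52.2 and 53.1 at leaf axils -27 and -20 of that tree.

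**Figure D4:**
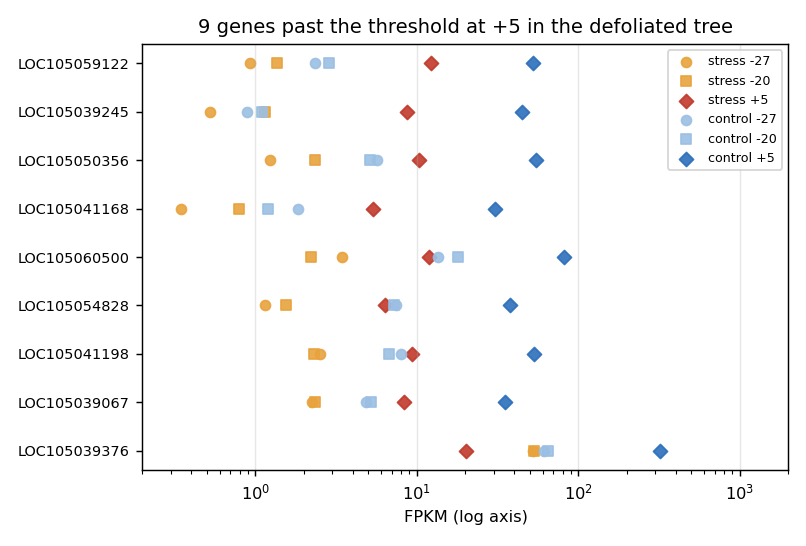
FPKM (log axis) in all 6 libraries for the 9 genes called between stress +5 and the early stress libraries, with diamonds for +5, circles for -27 and squares for -20, stress in orange and red and control in light and dark blue. Red diamonds lie right of the orange points in 8 genes and left of them in LOC105039376, and the control +5 diamond (dark blue) chose the genes and is the highest in each.

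Over all 187 genes, without a test, stress +5 lay above both early stress libraries in 128, below both in 26, and between or level with them in 33. Of the 182 members above 0 in a stress library, 70.3% lay above and 14.3% below, beside 44.3% and 35.0% of all 24926 such genes. Its level came to a median of 10.6% of that in control +5, with a highest value of 24.8%, which the rule holds under 25% by its ratio limit. The early control mean came to a median of 9.30% of control +5. Leaf axils -20 and -27 differed little in either tree: of the 104 members tested in the early libraries, 1 had a level in control -20 that was 2-fold or more above that in control -27 and 0 had one that far below, beside 0.933% of 18759 genes that differed by as much in either direction. In the stress tree 1 lay above and 2 lay below by this margin, beside 0.928%. These folds compare single libraries on the log2(FPKM + 1) scale and have no replicate check.

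Some of the genes lie next to each other in the genome. The EG11 table lists 175 of the 187 symbols (93.6%, and 89.3% of all records), 169 of them as protein-coding, 4 as pseudogenes, 1 as lncRNA and 1 as misc_RNA. It was used for the type and the order of genes only, since the authors aligned to an older assembly. Of the 174 members with a place in it, 12 formed 6 pairs of direct neighbours, and 4 more pairs had 1 or 2 other genes between them. The same count was not made for other sets of genes, so these pairs are no measure of clustering. LOC105055602 and LOC105055525 were neighbours with a similar profile: LOC105055525 had an FPKM of 10.1, 6.17 and 7.76 under stress, against 9.35, 5.66 and 59.9 in the control. LOC105036847 and LOC105045053 were neighbours that were both listed at 0 in stress -20 and stress +5, and LOC105045053 had 9.48 in control +5. LOC105037813 and LOC105050258 were neighbours that were both listed at 0 in stress -27 and -20, with 0.358 and 0.318 for LOC105050258 in control -27 and -20. In the pairs LOC105056383 and LOC105056384, LOC105056284 and LOC105056283, and LOC105049661 and LOC105049659, the genes of a pair differed in level in control +5 (9.66 and 52.0, 26.9 and 14.2, and 14.9 and 5.16).

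The genes that lay between 2 members did not meet the rule. LOC105039060, between LOC105039067 and LOC105039051, had an FPKM of 9.63, 9.95 and 10.8 under stress, against 7.39, 9.01 and 7.33 in the control. LOC105044597, between LOC105044598 and LOC105044596, reached 3.26 in control +5, and LOC105043876, between LOC105043742 and LOC105043741, was listed at 0 throughout. LOC105056792 and LOC105056793, with 2 genes between them, were among the 24 of 104 tested members with a positive log2 fold change between the early stress and control libraries. LOC105056792 had 2.85 and 1.94 in stress -27 and -20, against 0.303 and 0.490 in the control (limma log2 fold change 1.27, adjusted p = 0.0108). It passed the filter through the stress libraries alone, where it was higher, so its adjusted p is no support for a difference. LOC105056793 had 7.56 and 7.61, against 3.51 and 3.81 (limma log2 fold change 0.88, adjusted p = 0.00977). Neither gene was called, LOC105056792 because of its adjusted p and LOC105056793 because of its fold change. Reads shared between similar neighbours were not tested.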

How the data were processed

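Inflorescence RNA of 6 samples was sequenced from paired ends, 1 library each. The authors checked the reads without trimming, aligned them with HISAT2 2.1.0 to an oil palm assembly older than EG11 and quantified genes with StringTie 1.3.4 (versions from the submitters' processing notes), and they deposited the FPKM of each gene and library. Further scaling is not given in the sources used here. DESeq2, named by the authors, needs counts and was not run. The FPKM values give depth in relative terms only, so no counting intervals were computed, and the number of libraries limits the precision.

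The module was chosen by the rule given above. The genes, the rule and the gene lists were chosen with earlier results of these data known. Tests used limma 3.58.1 in R 4.3.3 on log2(FPKM + 1), with a mean-variance trend and Benjamini-Hochberg adjustment over all tested genes, and were tested on simulated data. A fold change on this scale understates changes of low genes. Genes entered a test where 2 or more of its libraries reached an FPKM of 1, and were called at an adjusted p under 0.01 and a log2 fold change of at least 1 in size, the study's criteria. Genes named were those highest in level or ratio, next to a limit of the rule, called, or neighbouring. Planned searches of protein and promoter motifs were not run. Python 3.11.15 with pandas 2.3.3 was used for other steps. Gene symbols were matched to a RefSeq table of EG11 (28655 of 32099 records). Alternatives were other limits, pseudocounts, filters, scalings and variance priors, the leaf axil as a block, and leaving out each library.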

Additional observations from a re-analysis of the deposited data

Results flagged for a closer look

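In 26 of the 187 genes the change from the early leaf axils to +5 ran in opposite directions in the 2 trees: control +5 lay above both early control libraries, which the rule fixes, and stress +5 lay below both early stress libraries. The rule fixes the control part, so the number counts only the stress part: the 26 genes are 14.3% of the 182 members above 0 in a stress library, and 35.0% of all 24926 such genes had stress +5 below both early stress libraries. With 1 library at +5 in each tree this difference was not tested. Some falls in the stress tree were slight. On the log2(FPKM + 1) scale, stress +5 minus the early stress mean ran from -1.60 in LOC105033428 to -0.06 in LOC105051868. Among the 26 genes, LOC105033428 had an FPKM of 5.50, 2.29 and 0.522 in the stress libraries at leaf axils -27, -20 and +5, against 7.11, 9.81 and 57.2 in the control libraries. LOC105058243 had 0.897, 0.558 and 0 under stress, against 1.81, 2.11 and 27.9 in the control.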

How the results depend on the processing

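The number of genes in the module was 314 at a ratio of at least 3, 93 at a ratio of at least 6, 300 at an FPKM of at least 2, 122 at an FPKM of at least 10 and 117 with a pseudocount of 1. It was 153, 137 and 147 after upper quartile scaling, centring on medians and quantile normalization. With 1 other library left out it ranged from 191 to 309, the highest without stress +5.

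For stress against control at the early leaf axils, 696 genes were called. Without a filter there were 153 genes and 5 members lower, and at a mean FPKM of at least 5 there were 431 genes and 4 members lower. Quantile normalization and centring on medians each gave 1 member higher, which had passed the filter through the stress libraries alone. With 1 library left out, between 229 and 647 genes, between 2 and 17 members lower and 0 members higher were called (3 to 6 members higher at an unadjusted p under 0.05, limma). The filter was applied anew to the libraries left, so leaving out a control library also dropped members from the test. A replicate block for the leaf axil gave 852 genes and 22 members lower. Deviations at -20 from the tree means had a correlation of 0.01 across genes between the trees.

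For stress +5 against the early stress libraries, 382 genes were called. A pseudocount of 0.1 gave 4 members higher, a mean FPKM of at least 5 gave 2, and no mean-variance trend gave 93 genes, 1 member higher and 0 lower (6 lower at an unadjusted p under 0.05). Without a filter 0 genes were called (6493 at an unadjusted p under 0.05). With 1 early library left out, between 46 and 398 genes, 0 to 9 members higher and 0 to 1 lower were called (4 members lower at an unadjusted p under 0.05 without stress -27, and 8 without stress -20). The cause of these changes was not tested. The 13 values of named genes kept their direction in all 116 refits in which the gene was tested, and were no longer past the threshold in 36. Settings in which a gene fell out of the filter are not among the 116.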
